A study of Rattus norvegicus with 30 samples.

Results

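The expression of 4 genes of the hypoxia response, Epas1, Egln3, Bhlhe40 and Bhlhe41, was followed during early osteogenesis (OS), adipogenesis (AD) and chondrogenesis (CH) of rat bone marrow mesenchymal stem cells (BMSCs). They were taken by gene name from the 9999 gene names listed for every sample, and all 4 were among the 4363 genes that passed a filter on low values. Epas1 was listed in 2 rows, which were summed, with 99.8% of its reads in 1 of them, and the other 3 genes had 1 row each. The cells came from the marrow of young female Sprague Dawley rats without any reported genetic change, were expanded to passage 2 in DMEM with serum in 2-dimensional culture, and were then either left undifferentiated (0 h) or placed in commercial osteogenic, adipogenic or chondrogenic medium for 3, 12 or 72 h. Each of the 10 groups held 3 samples, each pooled from cultures, and nothing in the sources used here says that they came from separate animals, so p-values measure only the spread between these samples. Uninduced cells cultured for 3 to 72 h were not analysed here, so time in culture, change of medium and lineage cannot be told apart in the comparisons with 0 h. The sample labels give no oxygen level, and no sample was described as hypoxic.

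Hypoxia-inducible factors (HIFs) are pairs of basic helix-loop-helix proteins in which an oxygen-regulated alpha subunit joins a stable beta subunit and activates genes for glycolysis, angiogenesis and survival. Epas1 encodes one of these alpha subunits, HIF2α, whereas Egln3 encodes the prolyl hydroxylase PHD3, which marks the alpha subunits for destruction in the presence of oxygen and is itself a target gene of HIFs. Bhlhe40 and Bhlhe41 encode the related repressors DEC1 and DEC2, which bind E-box sequences, are induced by hypoxia, take part in the circadian clock and have been linked to adipocyte and chondrocyte differentiation.

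The promoters of both repressor genes hold the E-box CACGTG, the sequence that clock activators and the DEC proteins themselves bind, and they are shown because Bhlhe40 and Bhlhe41 had the most alike patterns of any pair among the 4 genes. Both sequences are from RefSeq (assembly GRCr8), run from 250 bases before to 50 bases after the annotated start, and were searched on both strands for CACGTG and for ACGTG and GCGTG, the core letters of HIF binding motifs. CACGTG also contains ACGTG on each strand. Capitals mark every match.
Bhlhe40: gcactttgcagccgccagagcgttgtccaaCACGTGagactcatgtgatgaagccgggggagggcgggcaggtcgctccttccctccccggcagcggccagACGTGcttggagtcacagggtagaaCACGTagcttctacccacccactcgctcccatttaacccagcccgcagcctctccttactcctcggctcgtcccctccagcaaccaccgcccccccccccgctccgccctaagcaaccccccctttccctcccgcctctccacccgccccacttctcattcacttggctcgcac
Bhlhe41: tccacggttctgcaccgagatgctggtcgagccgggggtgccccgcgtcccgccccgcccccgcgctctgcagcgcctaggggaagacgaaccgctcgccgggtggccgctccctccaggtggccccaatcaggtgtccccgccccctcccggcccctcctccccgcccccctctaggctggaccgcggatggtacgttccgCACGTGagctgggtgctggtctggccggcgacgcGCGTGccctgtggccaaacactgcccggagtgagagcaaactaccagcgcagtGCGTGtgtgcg

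The Bhlhe40 window, chr4:143174200-143174499 on the plus strand, held CACGTG from 220 bases before the start and 2 further ACGTG matches beginning 149 and 124 bases before it. The Bhlhe41 window, chr4:180569306-180569605 on the minus strand, held CACGTG from 48 bases before the start and GCGTG at 2 places. Of 33469 rat promoters of the same length, 6.42% held CACGTG, 19.3% held ACGTG and 29.7% held GCGTG. The windows of Epas1 and Egln3 held none of these letters. A match describes the sequence only, since binding was not measured in these samples.

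The values are CPM, reads of a gene scaled to a common library size, with no gene length in them, so levels were compared between samples and never between genes. The totals behind them were 3899609 to 9046719 reads per sample (median 6579543), and the chondrogenic samples at 72 h had the lowest, 3899609 to 4523111 against at least 5405033 elsewhere. A signal of 3 reads, taken as the smallest detectable, corresponded to 0.332 to 0.769 CPM and covers counting error only. Between 38.9 and 71.4% of a total fell on listed genes. In 3 libraries (OS at 3 h, replicate 3, AD at 12 h, replicate 1, and AD at 72 h, replicate 3) the counts differed from the other replicates of their group by a chi-square of 42.5 to 78.1 per degree of freedom, compared with 2.42 to 18.4 for all other replicate pairs. Among stromal markers, Thy1 was abundant (8052 CPM at 0 h), but Vim was near 0 (0.243 CPM at 0 h), and Vcam1 was at 0 in most groups. Eno1, a glycolytic enzyme that every cell uses, was at only 2.64 CPM at 0 h, so a low value in these files cannot be read as absence of a gene. The sum of 8 stromal markers was 16086 to 16893 CPM at 0 h and was lowest in AD at 72 h, at 4112 to 4779 CPM. Most of this sum came from Thy1 and Itgb1, at 8052 and 7730 CPM at 0 h and 427 and 3785 CPM in AD at 72 h. The 3 listed blood markers summed to at most 2.06 CPM, and the 4 endothelial markers to 0.740 to 7.08 CPM in any sample, and the part of such cells in the results was not tested. In these bulk samples, fewer cells of a type and less RNA per cell cannot be told apart.

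A difference was called where the log2 fold change on the log2(CPM + 1) scale was at least 1 in size and the Benjamini-Hochberg adjusted p of limma over all tested genes was under 0.05. That scale understates the change of low genes. All comparisons with 0 h share the same 3 control samples. In osteogenesis, 2 of the 4 genes were called at 3 h, 1 at 12 h and 2 at 72 h, whereas 18.4%, 21.8% and 12.5% of all tested genes were called. In adipogenesis, 2, 4 and 3 of them were called at 3, 12 and 72 h, beside 18.8%, 13.7% and 15.3% of all tested genes. In chondrogenesis, 3, 3 and 4 were called, beside 18.0%, 14.4% and 18.0%. With 4 genes chosen by name, and with earlier results of these data known, these counts describe the genes and carry no test of their own. The median log2 fold change of all tested genes lay between -0.05 and 0.21 in the 9 comparisons with 0 h.

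**Figure D1:**
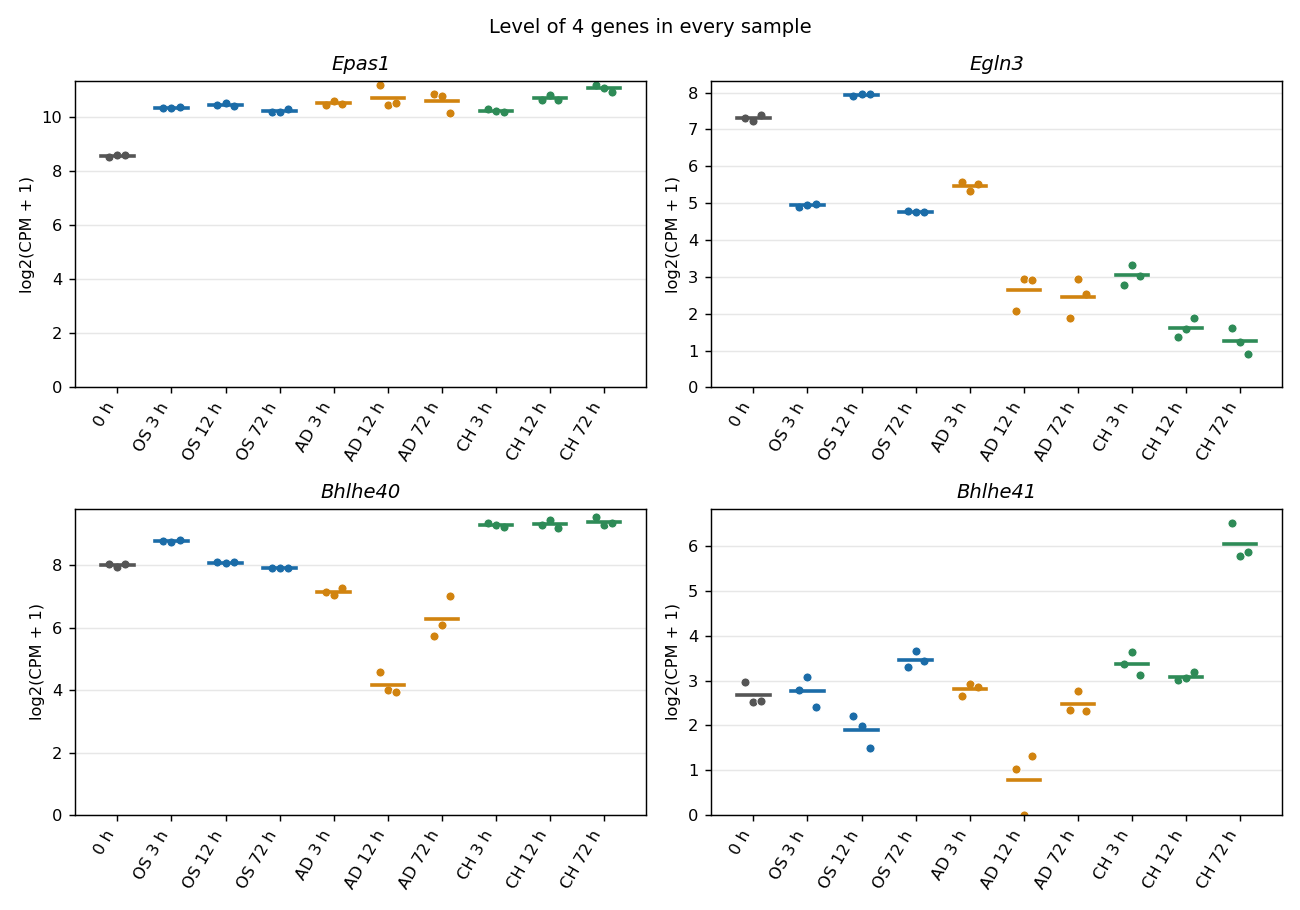
Level of each gene in every sample on a log2(CPM + 1) axis, with 1 dot per sample, a bar at the mean of the log2 values and 3 samples in each of 10 groups. Epas1 was lowest at 0 h, Egln3 was highest at 12 h of osteogenesis, Bhlhe40 was lowest at 12 h of adipogenesis, and Bhlhe41 was highest at 72 h of chondrogenesis.

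Epas1, the HIF2α gene, rose in all 3 lineages by 3 h and stayed higher than at 0 h at 12 and 72 h. Its level at 0 h was 366, 383 and 380 CPM (376 ± 9.49, SD, n = 3). At 3 h it was 1279, 1294 and 1315 CPM in osteogenesis, 1388, 1529 and 1406 CPM in adipogenesis, and 1250, 1201 and 1158 CPM in chondrogenesis. Every induced sample lay above every sample at 0 h. The log2 fold changes at 3 h were 1.78, 1.93 and 1.67 in OS, AD and CH (SE 0.15 each, limma adjusted p = 2.49e-11, 4.34e-12 and 8.87e-11). The level had thus risen 3.44-fold, 3.83-fold and 3.20-fold on mean CPM after 3 h.

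After 3 h, Epas1 had no called step between time points in any lineage. In osteogenesis it was 1385, 1440 and 1349 CPM at 12 h and 1163, 1145 and 1235 CPM at 72 h. In chondrogenesis it was 1589, 1803 and 1574 CPM at 12 h and 2334, 2126 and 1944 CPM at 72 h. The chondrogenic samples did not overlap between successive time points. The chondrogenic steps were 0.46 (SE 0.15, limma adjusted p = 0.022) and 0.37 (SE 0.15, limma adjusted p = 0.052) on the log2 scale, both under the size threshold. Against 0 h, the chondrogenic level at 72 h was 5.67-fold higher (log2 fold change 2.50, SE 0.15, limma adjusted p = 9.75e-15), the largest value of Epas1 in the 9 comparisons as reported. With quantile normalization and with an equal sum over the listed genes, the level at 72 h was marginally lower in CH than in AD (-0.024 and -0.032 as CH minus AD).

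In adipogenesis the replicates of Epas1 spread more. The level was 2325, 1374 and 1470 CPM at 12 h (1723 ± 524, SD, n = 3) and 1838, 1755 and 1135 CPM at 72 h (1576 ± 384, SD, n = 3). The sample at 2325 CPM and that at 1135 CPM were both among the 3 libraries that stood apart. The log2 fold changes against 0 h were 2.15 and 2.03 (SE 0.15 each, limma adjusted p = 6.66e-13 and 1.56e-12), and without those libraries they were 1.91 and 2.25, both called. By mean CPM, Epas1 ran from CH at 72 h over AD at 12 h, CH at 12 h, AD at 72 h, AD at 3 h, OS at 12 h, OS at 3 h, CH at 3 h and OS at 72 h down to 0 h, and 6 of the 9 neighbouring pairs overlapped. The gap between OS at 72 h and 0 h was the widest step in this order.

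Egln3, the prolyl hydroxylase gene, fell in all lineages by 3 h, was back at 244 CPM on average at 12 h of osteogenesis, and was low at 12 and 72 h in the other lineages. At 0 h it was at 157, 150 and 168 CPM (158 ± 8.77, SD, n = 3). In osteogenesis it was at 28.99, 30.02 and 30.6 CPM at 3 h, at 237, 248 and 248 CPM at 12 h, and at 26.4, 26.1 and 25.9 CPM at 72 h. The 3 osteogenic time points and 0 h did not overlap with one another. The log2 fold change against 0 h was -2.37 at 3 h and -2.55 at 72 h (SE 0.23 each, limma adjusted p = 6.86e-10 and 2.29e-10). At 12 h it was 0.62 (SE 0.23, limma adjusted p = 0.026), under the size threshold, and it fell to between 0.086 and 0.29 with the other scalings, edgeR and DESeq2.

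Between osteogenic time points, Egln3 changed by 2.99 from 3 to 12 h and by -3.18 from 12 to 72 h on the log2 scale (SE 0.23 each, limma adjusted p = 2.33e-11 and 7.76e-13). The first of these was the fourth highest log2 fold change among all 4363 genes tested between 3 and 12 h of osteogenesis.

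In adipogenesis Egln3 was at 46.2, 39.5 and 44.5 CPM at 3 h, at 3.22, 6.63 and 6.48 CPM at 12 h, and at 2.67, 6.74 and 4.75 CPM at 72 h. In chondrogenesis it was at 5.84, 8.95 and 7.13 CPM at 3 h, at 1.59, 2.03 and 2.69 CPM at 12 h, and at 2.05, 1.33 and 0.889 CPM at 72 h. All of these samples lay below every sample at 0 h, and the 12 and 72 h samples overlapped within each of the 2 lineages. The chondrogenic values at 72 h rested on 4 to 8 reads per sample, compared with 1079 to 1106 at 0 h.

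The fall of Egln3 against 0 h was -1.85, -4.68 and -4.86 on the log2 scale at 3, 12 and 72 h of adipogenesis (SE 0.23 each, limma adjusted p = 8.78e-08, 3.76e-16 and 6.52e-17). In chondrogenesis it was -4.28, -5.70 and -6.07 (SE 0.23 each, limma adjusted p = 3.08e-15, 2.35e-18 and 2.74e-19). Among all tested genes, Egln3 had the second lowest log2 fold change at 3 h of chondrogenesis, the lowest at 12 h and the third lowest at 72 h. On mean CPM the level at 72 h of chondrogenesis was 111-fold lower than at 0 h, and the log2 fold change there reached -6.88 under the alternative that moved it most. The further fall from 3 to 12 h was called in both lineages, at -2.83 in adipogenesis and -1.42 in chondrogenesis (SE 0.23 each, limma adjusted p = 3.40e-11 and 2.06e-05).

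**Figure D2:**
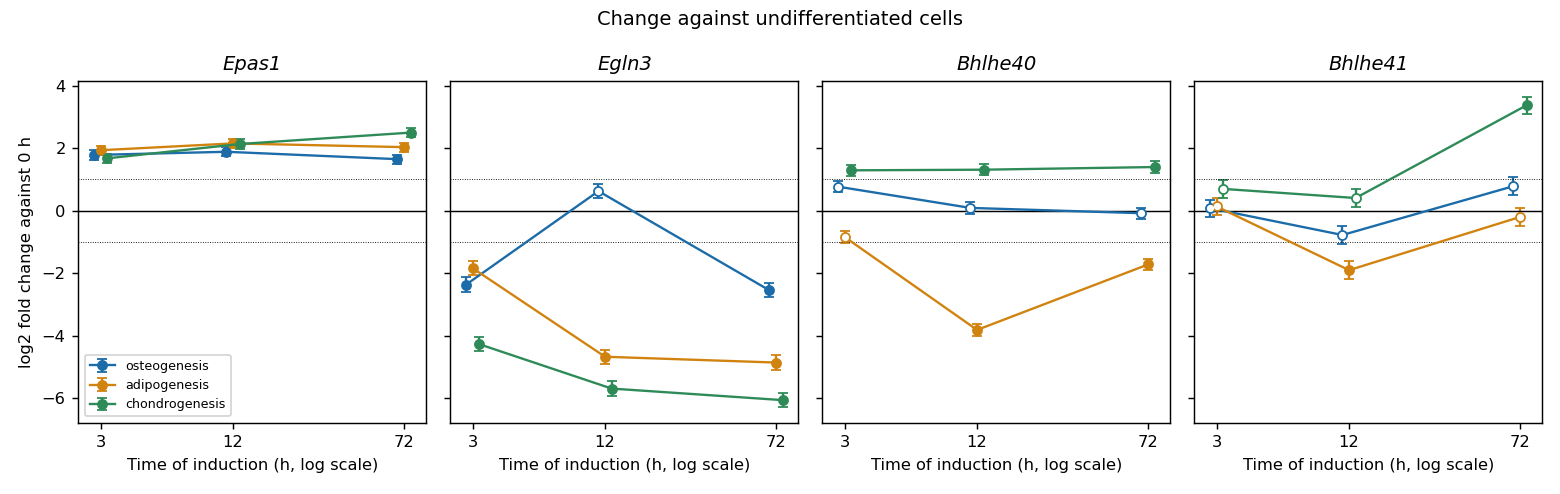
Log2 fold change of each gene against 0 h at 3, 12 and 72 h of induction (log time axis, points of the lineages set slightly apart), with bars for the SE of the limma model, filled points for called differences, and dotted lines at the size threshold of 1. Epas1 lay between 1.65 and 2.50 in all lineages, whereas the lineages of Bhlhe40 separated from 3 h onward.

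Bhlhe40, the DEC1 gene, was called higher in chondrogenesis at all 3 time points and lower in adipogenesis at 12 and 72 h. In osteogenesis it was not called. At 3 h of osteogenesis it was 1.70-fold higher than at 0 h on mean CPM, a log2 fold change of 0.77 that was 0.38 to 0.53 with the other scalings, edgeR and DESeq2. At 0 h its level was 259, 244 and 261 CPM (254 ± 9.21, SD, n = 3). In chondrogenesis it was 646, 625 and 599 CPM at 3 h, 616, 702 and 583 CPM at 12 h, and 736, 629 and 650 CPM at 72 h. All 9 chondrogenic samples lay above those at 0 h and overlapped between successive time points. The log2 fold changes were 1.29, 1.31 and 1.39 (SE 0.18 each, limma adjusted p = 7.82e-07, 8.09e-07 and 2.28e-07). The call at 3 h was lost with median-ratio scaling, quantile normalization, edgeR and DESeq2, where the value was 0.88 to 0.95, and the call at 12 h was lost with quantile normalization (0.97).

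In adipogenesis Bhlhe40 was at 139, 132 and 153 CPM at 3 h, at 22.8, 15.1 and 14.4 CPM at 12 h, and at 52.3, 66.1 and 128 CPM at 72 h. The time points did not overlap with each other or with 0 h, and the value of 128 CPM came from a library that stood apart. At 3 h the log2 fold change was -0.85 (SE 0.18, limma adjusted p = 0.00032), just short of the size threshold, and 5 of the alternative scalings and tools called it at -1.04 to -1.20. At 12 and 72 h it was -3.82 and -1.72 (SE 0.18 each, limma adjusted p = 2.37e-16 and 4.86e-09). The value at 12 h was the fifth lowest of all tested genes in that comparison. Without the libraries that stood apart, the values at 12 and 72 h were -4.02 and -2.09, both called.

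The adipogenic course of Bhlhe40 was a fall followed by a partial return. It changed by -2.97 from 3 to 12 h and by 2.09 from 12 to 72 h on the log2 scale (SE 0.18 each, limma adjusted p = 5.51e-14 and 7.59e-11). In osteogenesis it was at 435, 422 and 442 CPM at 3 h, at 271, 267 and 272 CPM at 12 h, and at 239, 240 and 241 CPM at 72 h. The osteogenic samples at 3 h lay above all those at 0 h, and those at 12 and 72 h were on either side of them by a small margin. The log2 fold changes were 0.77, 0.09 and -0.08 (SE 0.18 each, limma adjusted p = 0.00095, 0.76 and 0.81). Of these 3 comparisons, 0 were called by limma, edgeR or DESeq2, and 1 had an unadjusted limma p under 0.05.

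Bhlhe41, the DEC2 gene, had few reads in most groups and rose late in chondrogenesis. At 0 h it was at 6.88, 4.74 and 4.85 CPM (5.49 ± 1.20, SD, n = 3). In chondrogenesis it was at 9.29, 11.5 and 7.74 CPM at 3 h, at 7.08, 7.32 and 8.08 CPM at 12 h, and at 90.0, 53.9 and 57.6 CPM at 72 h. The 3 samples at 72 h lay above all other samples, and the highest of them was well above the other two. The log2 fold change at 72 h was 3.37 against 0 h and 2.97 against 12 h (SE 0.28 each, limma adjusted p = 2.46e-11 and 7.18e-10). On mean CPM this was 12.2-fold higher than at 0 h, with 244 to 351 reads per sample.

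In adipogenesis Bhlhe41 was at 5.31, 6.61 and 6.25 CPM at 3 h, at 1.02, 0 and 1.48 CPM at 12 h, and at 4.10, 5.85 and 3.96 CPM at 72 h. The samples at 12 h, with 7, 0 and 8 reads, lay below all others, and the library without a read allows a level of up to 0.552 CPM. The log2 fold change at 12 h was -1.91 against 0 h (SE 0.28, limma adjusted p = 2.24e-06), and with a pseudocount of 0.1 in place of 1 it was -3.29. The gene fell by 2.04 on the log2 scale from 3 to 12 h and rose by 1.70 from 12 to 72 h (SE 0.28 each, limma adjusted p = 9.78e-07 and 8.59e-06), values that became -3.45 and 3.05 under the alternatives that moved them most.

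In osteogenesis Bhlhe41 was at 5.95, 7.43 and 4.29 CPM at 3 h, at 3.62, 2.99 and 1.83 CPM at 12 h, and at 8.80, 11.7 and 9.79 CPM at 72 h. By limma, 0 of the 3 osteogenic comparisons with 0 h were called (2 at an unadjusted p under 0.05), with log2 fold changes of 0.08, -0.78 and 0.78 (SE 0.28 each, limma adjusted p = 0.87, 0.022 and 0.034). The value at 12 h was called at -1.04 to -1.36 with median-ratio scaling, an equal sum over the listed genes, edgeR and DESeq2. The change from 3 to 12 h was -0.86 (SE 0.28, limma adjusted p = 0.024), which was called with edgeR and DESeq2 (-1.22 and -1.16), without replicate 3 at 3 h (-1.04) and without replicate 1 at 12 h (-1.01). The rise from 12 to 72 h was called, at 1.56 (SE 0.28, limma adjusted p = 2.52e-05).

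Counted by time step, 1 of the 4 genes was called from 3 to 12 h and 2 from 12 to 72 h of osteogenesis, beside 7.82% and 23.2% of all tested genes. In adipogenesis 3 were called from 3 to 12 h and 2 from 12 to 72 h, beside 12.9% and 16.0%. In chondrogenesis 1 of them was called in each step, Egln3 in the first and Bhlhe41 in the second, beside 7.68% and 13.2%. The 3 genes called in the first adipogenic step, Egln3, Bhlhe40 and Bhlhe41, were all lower at 12 h than at 3 h. Epas1 was called in 0 of the 6 steps by limma, edgeR and DESeq2, and 2 of them, both chondrogenic, had an unadjusted limma p under 0.05.

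The lineages were then compared directly at each time point. At 3 h, 1 of the 4 genes differed between OS and AD, 1 between OS and CH and 2 between CH and AD, beside 7.66%, 7.31% and 9.35% of all tested genes. At 12 h, 3 differed in each of these comparisons, beside 13.2%, 16.0% and 13.6%. At 72 h the counts were 2, 3 and 3, beside 13.7%, 19.6% and 25.5%. Epas1 was called in 0 of the 9 comparisons by limma, edgeR and DESeq2 (3 had an unadjusted limma p under 0.05), with differences between -0.85 (OS minus CH at 72 h) and 0.47 (CH minus AD at 72 h) on the log2 scale (SE 0.15). The latter (limma adjusted p = 0.0089) was near 0 with an equal sum over the listed genes (-0.032) and quantile normalization (-0.024). With quantile normalization, Epas1 was called lower in OS than in AD (-1.09) and lower in OS than in CH (-1.06) at 72 h.

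**Figure D3:**
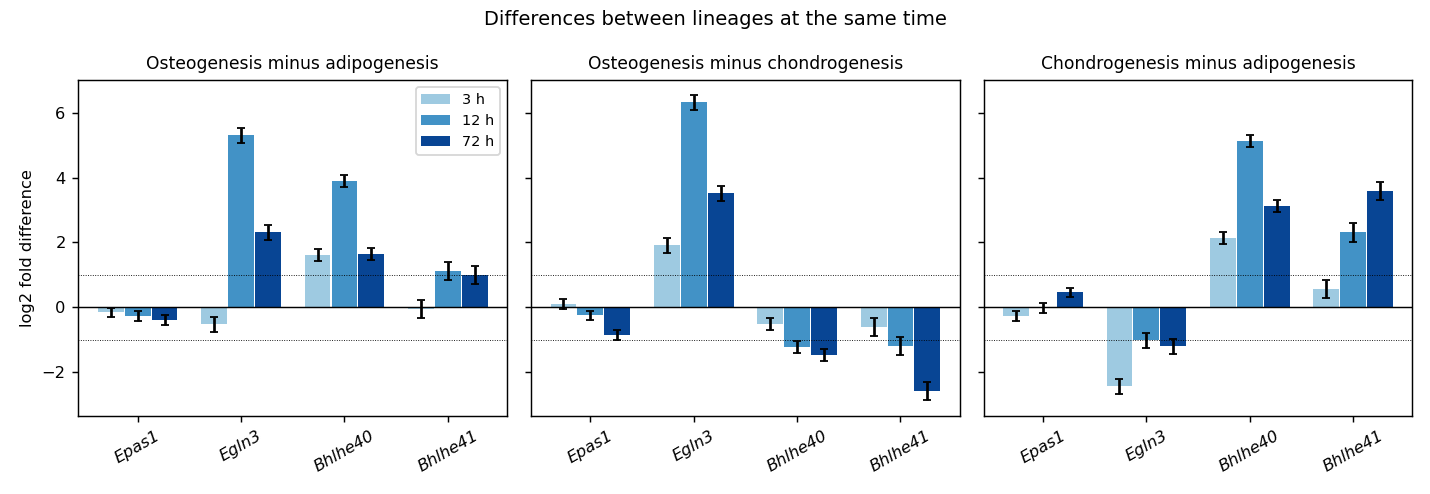
Log2 difference of each gene between lineages at 3, 12 and 72 h, with bars starting at 0, whiskers for the SE of the limma model and dotted lines at the size threshold of 1. Egln3 differed most at 12 h between OS and the other lineages (5.30 and 6.32), and Bhlhe40 at 12 h between CH and AD (5.13).

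Egln3 separated osteogenesis from the other lineages at 12 h. Its level there was 5.30 higher than in AD and 6.32 higher than in CH on the log2 scale (SE 0.23 each, limma adjusted p = 2.73e-17 and 1.22e-19), in both cases the second highest value of all tested genes. At 72 h it was still 2.31 and 3.51 higher in OS (SE 0.23 each, limma adjusted p = 2.85e-09 and 1.10e-13). At 3 h it was already lower in CH, by 1.91 relative to OS as OS minus CH and at -2.43 as CH minus AD (SE 0.23 each, limma adjusted p = 2.24e-07 and 1.15e-09), whereas OS minus AD was -0.52 (SE 0.23, limma adjusted p = 0.12). The differences between CH and AD at 12 and 72 h were -1.02 and -1.20 (SE 0.23 each, limma adjusted p = 0.00079 and 5.87e-05). The first of these was near the threshold and was lost with median-ratio scaling (-0.998), with quantile normalization (-0.92), or without AD replicate 2 or 3 or CH replicate 1 (-0.87 to -0.90). In a fit of the 6 samples alone it was lost at the same value of -1.02 (limma adjusted p = 0.059). The second, which was as low as -1.98 with DESeq2, was lost without AD replicate 2 (-0.95).

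Bhlhe40 separated adipogenesis from the other lineages at every time point. CH minus AD was 2.14, 5.13 and 3.12 at 3, 12 and 72 h on the log2 scale (SE 0.18 each, limma adjusted p = 1.30e-10, 1.12e-19 and 5.64e-15). OS minus AD was 1.61, 3.91 and 1.64 (SE 0.18 each, limma adjusted p = 5.67e-08, 1.48e-16 and 2.42e-08). OS was lower than CH, with differences of -0.52, -1.22 and -1.48 (SE 0.18 each, limma adjusted p = 0.042, 2.29e-06 and 7.53e-08), of which the first was not called. At every time point the order was thus CH, OS and AD, and no sample of one lineage overlapped with those of another. Ordered over all groups by mean CPM, only the 3 chondrogenic time points of Bhlhe40 overlapped with their neighbours.

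Bhlhe41 did not differ by a called amount between lineages at 3 h, where the differences were -0.06 (OS minus AD), -0.62 (OS minus CH) and 0.56 (CH minus AD), with an SE of 0.28 and limma adjusted p = 0.94, 0.13 and 0.17. At 12 h, CH minus AD was 2.31, OS minus AD 1.12 and OS minus CH -1.18 (SE 0.28 each, limma adjusted p = 8.98e-08, 0.0020 and 0.0010). The OS minus AD call was lost with an equal sum over the listed genes (0.96), without AD replicate 2 (0.74) or without OS replicate 1 (0.97), and the OS minus CH call was lost without OS replicate 3 (-0.98). In a fit of the 6 samples alone the OS minus AD call was lost at the same value of 1.12 (limma adjusted p = 0.086). With a pseudocount of 0.1, OS minus AD was 2.32 and CH minus AD 3.75. At 72 h, CH exceeded AD by 3.57 and OS minus CH was -2.59 (SE 0.28 each, limma adjusted p = 4.39e-12 and 5.93e-09). OS minus AD at 72 h was 0.99 (SE 0.28, limma adjusted p = 0.0054), just short of the size threshold, and was called with quantile normalization (1.03) or without AD replicate 2, OS replicate 1 or OS replicate 3 (1.001 to 1.13).

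Across all 30 samples, the patterns of the 4 genes were compared with each other and with 2075 genes of at least 5 CPM on average, by Pearson's r of log2(CPM + 1). The samples share groups, control and library preparation, so r is a description here. Bhlhe40 and Bhlhe41 were the pair most alike (r = 0.69). Epas1 and Egln3 had the most negative r (-0.63), while the other pairs lay between -0.36 and 0.20. At 12 h of osteogenesis, however, both Epas1 and Egln3 averaged above 0 h (1391 against 376 CPM and 244 against 158 CPM). The genes most like Egln3 were Bnip3 (r = 0.90), a mitophagy receptor, Ccr1 (r = 0.88), a chemokine receptor, Rdm1 (r = 0.88), Pygl (r = 0.87), a glycogen phosphorylase, and Plekha3 (r = 0.85). Ccr1, for example, was at 73.9 CPM at 0 h, 217 CPM at 12 h of osteogenesis and 0.319 CPM at 72 h of chondrogenesis on average.

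The genes most like Bhlhe40 were Slc1a4 (r = 0.92), a neutral amino acid transporter, Ctgf (r = 0.88) and Cyr61 (r = 0.85), secreted matricellular proteins, Rhoq (r = 0.88), a small GTPase, and Lox (r = 0.86), which crosslinks collagen. Slc1a4 was at 684 CPM at 0 h, 308 CPM at 12 h of adipogenesis and 1645 CPM at 72 h of chondrogenesis on average. Those most like Bhlhe41 were Atrn (r = 0.94), Ankrd29 (r = 0.87), Prss35 (r = 0.86), Dram1 (r = 0.86) and Mlxip (r = 0.84). Dram1, which takes part in autophagy, was at 148 CPM at 0 h and 751 CPM at 72 h of chondrogenesis. Epas1 had weaker matches, namely Ube2g2 (r = 0.81), Gstk1 (r = 0.79), Crispld2 (r = 0.79), Cdk5rap3 (r = 0.78) and AABR07066818.1 (r = 0.72). Crispld2, a secreted protein, was at 2.50 CPM at 0 h and 1957 CPM at 72 h of chondrogenesis on average.

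Of 16 other components of the HIF pathway, 4 were listed and all 4 were tested, with 0 higher and 7 lower calls by limma in 36 gene comparisons with 0 h. That was 19.4% of the comparisons, near the 16.8% called over all tested genes in the same 9 comparisons. At an unadjusted limma p under 0.05, 6 were higher and 17 lower. The share of all tested genes at that p was not computed, so these counts cannot be set beside the 16.8%. With edgeR 0 were called higher and 9 lower, and with DESeq2 0 higher and 8 lower, or 25% and 22.2% of the comparisons beside 20.6% and 20.5% over all tested genes with the same tool. Cited2, which competes with HIF alpha subunits for a coactivator, accounted for 5 of the 7 lower calls by limma and fell from 460 CPM at 0 h to 77.6 CPM at 12 h of chondrogenesis (log2 fold change -2.55, SE 0.13, limma adjusted p = 1.32e-15). Its log2 fold change in adipogenesis was -1.83 at 3 h and -1.24 at 12 h (SE 0.13 each, limma adjusted p = 1.82e-12 and 9.38e-09). At 12 h of osteogenesis Cited2 was not called by limma (-0.95), but was with the other scalings, edgeR and DESeq2 (-1.42 to -1.28). Hif1a, the gene of the other main alpha subunit, averaged 1.10 CPM at 0 h and was listed at 0 at 12 and 72 h of osteogenesis, the 2 comparisons where it was called lower by limma, and with edgeR also at 12 h and with a pseudocount of 0.1 also at 12 and 72 h of chondrogenesis. At such levels its change cannot be read reliably. Eloc and Rbx1, subunits of the ubiquitin ligase that takes up hydroxylated HIF, had log2 fold changes under the threshold, of -0.45 to 0.62 for Rbx1 and -0.31 to 0.46 for Eloc. Arnt, Egln1, Egln2, Vhl, Hif1an and Vegfa were not analysed here.

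**Figure D4:**
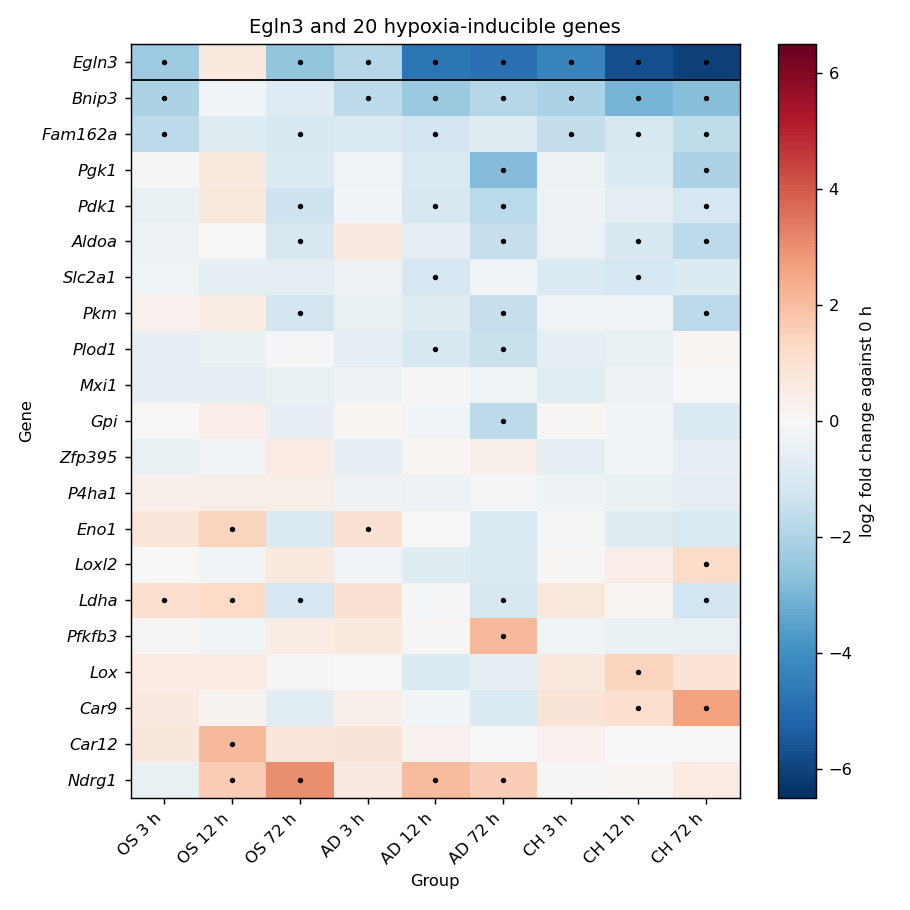
Log2 fold change against 0 h (colour) of Egln3 in the top row and of the 20 tested hypoxia-inducible genes below it, in the 9 induced groups, with a dot in each called cell. Egln3 and Bnip3 were lower in most groups, whereas Ndrg1 was higher in 4 of them.

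Of 48 hypoxia-inducible genes, 29 were listed and 20 tested, and they gave 14 higher and 34 lower calls in 180 gene comparisons with 0 h. These were 26.7% of the comparisons, beside 16.8% over all tested genes. With edgeR and DESeq2 the lower calls numbered 51 each, and the calls in either direction were 35.0% and 36.1% of the comparisons, beside 20.6% and 20.5% over all tested genes. At 72 h, 2 of the 20 rose and 8 fell in adipogenesis, 2 rose and 7 fell in chondrogenesis, and 1 rose and 5 fell in osteogenesis, beside 15.3%, 18.0% and 12.5% of all tested genes called in either direction. In the same order, 9.08%, 6.37% and 5.29% of all tested genes were called lower. At 72 h of adipogenesis all tested genes also leaned lower, with 270 called higher and 396 lower. With edgeR and with DESeq2, 8 fell at 72 h of osteogenesis, Car9, Eno1 and Pgk1 being called in addition, beside 15.9% and 15.8% of all tested genes called in either direction. Car9 and Eno1 were low, at 0.986 and 2.64 CPM at 0 h and 0.150 and 0.920 CPM at 72 h of osteogenesis. At such levels their change cannot be read reliably. By limma, the median log2 fold changes of the 20 genes at 72 h were -0.92, -0.77 and -0.54 in AD, CH and OS, compared with -0.05, 0.01 and 0.08 over all tested genes. At 12 h of osteogenesis, 4 of the 20 were higher and 0 lower by limma, namely Ldha, Ndrg1, Eno1 and Car12, the latter pair at under 10 CPM, a count no larger than the 21.8% called over all tested genes. At an unadjusted limma p under 0.05, 8 were higher and 2 lower. The share of all tested genes at that p was not computed. Both edgeR and DESeq2 called 3 higher and 1 lower, beside 27.4% and 27.1% of all tested genes called in either direction. The median there was 0.30 compared with 0.09 over all tested genes, but it lay between -0.02 and 0.08 with the other scalings and tools.

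Within this list, Bnip3 was called lower in 7 of the 9 comparisons. It was at 344 CPM at 0 h, 309 CPM at 12 h of osteogenesis (log2 fold change -0.16, SE 0.12, limma adjusted p = 0.33) and 41.5 CPM at 12 h of chondrogenesis (-3.02, SE 0.12, limma adjusted p = 3.74e-18). Ldha, the lactate dehydrogenase subunit of glycolytic cells, was at 2686 CPM at 0 h and 6505 CPM at 12 h of osteogenesis, and was called higher at 3 and 12 h of osteogenesis (1.11 and 1.28) and lower at 72 h of all lineages (-1.08, -1.04 and -1.26 in OS, AD and CH). Of these Ldha calls, that at 3 h of osteogenesis was lost with all 3 other scalings, with edgeR and DESeq2 and without the libraries that stood apart (0.84 to 0.97). That at 12 h of osteogenesis was lost with median-ratio scaling, an equal sum, edgeR and DESeq2 (0.87 to 0.94), and that at 72 h of adipogenesis with the same 6 alternatives as the first (-0.93 to -0.59). Pdk1, which diverts pyruvate from the mitochondria, was called lower at 72 h of all lineages (-1.34, -1.75 and -1.09 in OS, AD and CH) and at 12 h of adipogenesis (-1.05). Fam162a was called lower in 6 comparisons, although it was at only 7.61 CPM at 0 h. Ndrg1, a stress-responsive gene, went the other way and rose from 66.4 CPM at 0 h to 550 CPM at 72 h of osteogenesis (log2 fold change 3.03, SE 0.28, limma adjusted p = 3.41e-10). It was also called higher at 12 h of osteogenesis and at 12 and 72 h of adipogenesis (1.63, 2.06 and 1.60).

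Of 23 circadian clock genes, 9 were listed and 4 tested, with 2 higher and 1 lower calls in 36 gene comparisons, or 8.33% of them, beside 16.8% over all tested genes. The count depended on the tool, with 2 higher and 5 lower calls with edgeR and 3 higher and 5 lower with DESeq2. These were 19.4% and 22.2% of the comparisons, beside 20.6% and 20.5% over all tested genes. Both tools also called Nr1d1 lower at 3 and 12 h of osteogenesis and at 3 and 72 h of chondrogenesis. Nr1d1, a clock repressor, was called higher at 72 h of adipogenesis (1.38, SE 0.30, limma adjusted p = 0.00038) and lower at 12 h of chondrogenesis (-1.11, SE 0.30, limma adjusted p = 0.0033), at levels of 0.148 to 5.75 CPM. Csnk1d, a clock kinase, was called higher at 12 h of adipogenesis (1.08, SE 0.31, limma adjusted p = 0.0076), a call lost with median-ratio scaling, quantile normalization and edgeR. Arntl, the partner of Clock, had log2 fold changes of -0.30 to 0.53, and Cry2 of -0.44 to 0.65, all under the threshold. Arntl and Csnk1d were at 0.873 and 0.995 CPM at 0 h. From such a level even a fall to 0 stays under the size threshold on this scale, so limma could not call them lower. Per1 and Per2 were not analysed here. Of 10 other E-box repressors of the Hes and Hey family, 7 were listed and 4 tested, and they gave 1 higher call, Heyl at 72 h of chondrogenesis (1.48, SE 0.21, limma adjusted p = 1.30e-06), and 1 lower call, Hes6 at 3 h of osteogenesis (-1.15, SE 0.26, limma adjusted p = 0.00058). These were 5.56% of their 36 gene comparisons, again beside 16.8%. Heyl and Hes7, at 0.0477 and 0.384 CPM at 0 h, could likewise not be called lower by limma on this scale. Here too the count depended on the tool, with 5 lower calls with edgeR and 4 with DESeq2, the additional ones all of Hey2. With the 1 higher call of each tool, these were 16.7% and 13.9% of the comparisons, beside 20.6% and 20.5%. Heyl was at 1.98 CPM at 72 h of chondrogenesis, the group in which Bhlhe41 was also at its highest.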

How the data were processed

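The 30 RNA-seq samples formed 10 groups of 3. The study's methods describe mRNA libraries and a NovaSeq instrument, whereas the sample labels describe ribosomal RNA removal. The submitters' processing notes name Trimmomatic, HISAT2 and StringTie, and the genome build and annotation are not given in the sources used here. The values deposited by the authors under the name FPKM are CPM: in every sample 100% of them were whole multiples, within 0.01 reads, of 1 common step, which gave back the reads and the totals (3899609 to 9046719). Each sample had 10803 rows under 9999 names, of which 729 were repeated and summed. The filter kept the 4363 genes reaching 1 CPM in 3 or more samples. On log2(CPM + 1), 1 model of the 30 samples with group as its only term was fitted by limma 3.58.1 (lmFit and eBayes, trend on), run under R 4.3.3. The 24 comparisons were 9 with 0 h, 6 with the preceding time point and 9 between lineages. A call needed a size of 1 or more on the log2 scale and an adjusted p under 0.05.

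Alternatives were a pseudocount of 0.1, no filter, median-ratio scaling, quantile normalization, an equal sum over the listed genes, the 6 samples of a comparison alone, a replicate block, each sample left out in turn, edgeR 4.0.16 and DESeq2 1.42.0 on the recovered reads, and Epas1 without its minor row. Leaving out the 3 libraries that stood apart was added after seeing the data. The limma and edgeR fits were tested on simulated data for 3 h of osteogenesis against 0 h. Each recovered 145 of 200 planted changes among 4363 genes and called 3 unchanged genes, so planted changes were missed too. Genes named were the 4 genes, up to 5 tested genes per list with the most calls against 0 h, pathway genes chosen by role, and for each of the 4 the 5 genes of highest r with a mean of at least 5 CPM. Of the other genes named, Car9, Car12, Eno1, Hey2, Pgk1, Vim and Vcam1 were singled out after their values were seen. The members and lists were chosen with earlier results of these data known. Promoters were taken from RefSeq (GRCr8), in which all 4 genes matched. Python 3.11.15 (pandas 2.3.3) was used for tables and matplotlib 3.10.9 for figures.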

Additional observations from a re-analysis of the deposited data

Results flagged for a closer look

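The change against 0 h differed between lineages by a called amount in 21 of 36 lineage comparisons of the 4 genes, tested in the limma model as the difference between lineages at the same time point. Of all tested genes, between 7.31% and 25.5% were called in a single lineage comparison. The 4 genes were chosen with earlier results of these data known, so their count carries no test of its own. For Egln3 the log2 differences were 1.91 (OS minus CH) and -2.43 (CH minus AD) at 3 h, 5.30 (OS minus AD), 6.32 (OS minus CH) and -1.02 (CH minus AD) at 12 h, and 2.31, 3.51 and -1.20 in the same order at 72 h. For Bhlhe40 they were 1.61 (OS minus AD) and 2.14 (CH minus AD) at 3 h, 3.91 (OS minus AD), -1.22 (OS minus CH) and 5.13 (CH minus AD) at 12 h, and 1.64, -1.48 and 3.12 in the same order at 72 h. For Bhlhe41 they were 1.12 (OS minus AD), -1.18 (OS minus CH) and 2.31 (CH minus AD) at 12 h, and -2.59 (OS minus CH) and 3.57 (CH minus AD) at 72 h. No difference of Epas1 was called by limma.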

How the results depend on the processing

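Counted per gene and kind of comparison, the number of calls stayed within 1.5 times of the reported one in every alternative, except that quantile normalization called Epas1 between lineages in 2 of 9 comparisons instead of 0. The 9 calls of Epas1 against 0 h and the direction of every called difference of the 4 genes held in all alternatives run. Pseudocount, filter and replicate block changed no call in 96 comparisons each, and the minor row of Epas1 changed none in 24. The replicate numbers did not pair the samples: deviations of samples sharing a number had a median r of -0.0085 over 135 pairs, of which 3 were over 0.1, and 3 of 30 samples were closest to their own number. Depth limited Egln3 in chondrogenesis (as few as 4 reads) and Bhlhe41 at 12 h of adipogenesis (0 to 8 reads). The scalings and tools shifted the median of all tested genes by -0.33 to 0.31 on the log2 scale, depending on the comparison.

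Some uncalled differences changed sign, as log2 values, in the following cases, and the cause was not tested. Against 0 h, Bhlhe40 at 12 h of osteogenesis was -0.25 with median-ratio scaling and DESeq2, -0.32 with edgeR, -0.28 with an equal sum and -0.41 with quantile normalization. Bhlhe41 at 3 h of osteogenesis was -0.13 (median-ratio), -0.15 (equal sum), -0.15 (edgeR) and -0.14 (DESeq2), and -0.082 to 0.25 with single samples left out. Bhlhe41 at 3 h of adipogenesis was -0.082, -0.033, -0.15 and -0.12 in the same order, and at 72 h 0.013 with an equal sum. From 12 to 72 h of osteogenesis, Bhlhe40 was 0.016 with median-ratio scaling and DESeq2, 0.081 with edgeR, 0.11 with an equal sum and 0.21 with quantile normalization, and Epas1 was 0.015 with edgeR and 0.039 with an equal sum. From 3 to 12 h of osteogenesis, Epas1 was -0.055 with edgeR and -0.00012 with an equal sum. From 12 to 72 h of adipogenesis, Egln3 was 0.18 (median-ratio), 0.10 (equal sum), 0.19 (edgeR) and 0.28 (DESeq2), and Epas1 was 0.33, 0.23, 0.24 and 0.32 in the same order, 0.52 with quantile normalization and 0.34 without the 3 libraries that stood apart. Without those libraries, Epas1 was also -0.019 from 3 to 12 h of adipogenesis and 0.22 as CH minus AD at 12 h, and Bhlhe41 was 0.12 as OS minus AD at 3 h. The last was 0.0023 with edgeR and 0.015 with quantile normalization. Epas1 as CH minus AD at 72 h, 0.47 as reported and more than 3 SE from 0, was -0.032 with an equal sum and -0.024 with quantile normalization. Without the libraries that stood apart, Bhlhe41 from 3 to 12 h of osteogenesis became called (-1.04), and no other call of the 4 genes changed.

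With single samples left out, Epas1 ranged from -0.019 to 0.36 from 3 to 12 h and -0.26 to 0.12 from 12 to 72 h of adipogenesis, and Egln3 -0.47 to 0.10 in the latter. Bhlhe40 ranged from -0.056 to 0.078 from 3 to 12 h of chondrogenesis, Bhlhe41 from -0.21 to 0.12 as OS minus AD at 3 h, and Epas1 from -0.16 to 0.22 as CH minus AD at 12 h.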
